A study of Mus musculus with 20 samples.

Results

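The transcription factor NF-kB and the genes that restrain it were described in bone marrow neutrophils of mice given the Toll-like receptor agonist imiquimod (IMQ). The gene group held 9 members, chosen by name with earlier results of these data known. They were the subunit genes *Nfkb1*, *Nfkb2*, *Rel* and *Relb*, the inhibitor and feedback genes *Nfkbia*, *Nfkbiz* and *Tnfaip3*, and the induced genes *Tnfaip2* and *Icam1*. All 9 were among the 24421 genes listed in the files, and all 9 were among the 14030 genes with enough reads to be tested. RNA-seq libraries came from 20 female mice in 4 groups of 5. WT mice were C57BL/6J. *Bmal1* Mye-/- mice carried floxed *Bmal1* alleles and Cre recombinase inserted at the *Lyz2* locus (LysMCre), so that the circadian clock gene *Bmal1* was deleted in myeloid cells and not in neutrophils alone. Both genotypes were either left untreated or given a 5% IMQ cream on the ears 3 times per week for 6 weeks, starting at 8 to 10 weeks of age, and all mice were killed in the morning, between 1 and 4 h after lights on. The WT mice were bought in and the *Bmal1* Mye-/- mice were bred at the study's facility, and no group carried Cre without the floxed alleles, so that genotype, Cre insertion and origin cannot be told apart. Neutrophils were isolated from bone marrow by magnetic negative selection, and 1 library was made per mouse.

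NF-kB is a family of dimeric transcription factors. In resting cells the dimers are held in the cytoplasm by IkB proteins, and Toll-like receptors, through MyD88 and the IKK kinases, mark these inhibitors for destruction. The freed dimers enter the nucleus and induce inflammatory genes together with their own inhibitors, which is why the level of *Nfkbia* or *Tnfaip3* mRNA is often read as a trace of recent NF-kB activity. Neutrophils respond to Toll-like receptor ligands through this pathway, and IMQ is a ligand of TLR7.

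The libraries held 30782166 to 92613500 reads on genes (median 66094896). Levels are given as CPM, counts scaled to the depth of each library after correction by TMM factors. Replicates of a group were separate mice. *Lyz2*, which the Cre insertion disrupts, checked the genotype labels: it lay between 58.8 and 177 CPM in the 10 *Bmal1* Mye-/- libraries and between 2470 and 12000 CPM in the 10 WT libraries. *Arntl*, the name of *Bmal1* in the files, was low throughout and its groups overlapped, at 0.468 to 1.1 CPM in untreated *Bmal1* Mye-/- and 0.895 to 1.71 CPM in untreated WT, and reads outside the deleted part of the gene do not check the deletion. The neutrophil marker list summed to 70500 to 154000 CPM, with 9 of its 10 genes in the files (*Ly6g* was not analysed here). Replicates 5 of IMQ-treated WT and 2 of IMQ-treated *Bmal1* Mye-/- lay within the range of the untreated mice of their genotype on the first principal component. Replicates 3 of IMQ-treated WT and 1 of IMQ-treated *Bmal1* Mye-/- had the lowest sums of late neutrophil genes (4550 and 2880 CPM, against 13700 to 19100 CPM in the untreated libraries). Replicates 5 and 3 of IMQ-treated *Bmal1* Mye-/- were also far below the untreated range (6460 and 7930 CPM). Counts of called members and list genes that rest on replicates 3 and 5 of IMQ-treated WT or 1 and 2 of IMQ-treated *Bmal1* Mye-/- are given with and without them.

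To show what the members' start sites share, the 250 bases before each RefSeq start (GRCm38.p6, the assembly also called mm10) were searched on both strands for a 10-base kappaB consensus, for the E-box CACGTG that BMAL1 dimers bind, and for the AP-1 site TGANTCA. Entries were found for 6 members with 9 start sites, and none for *Nfkb1*, *Relb* and *Nfkbiz*. A kappaB match was found for 4 of the 6 genes, at 6 of the 9 starts, against 3.9% of 32851 promoters. The E-box was found at 1 start, of *Tnfaip3* (6.02% of promoters), and the AP-1 site at 2 starts, of *Tnfaip3* and *Nfkb2* (6.75%). No kappaB match overlapped an E-box or AP-1 match. Neither *Tnfaip2*, the member that changed below, nor *Icam1* held a match to this kappaB consensus in this window. Of the *Tnfaip2* window, 192 of 250 bases lay in exons of the gene itself. For both genes the bases after the start were not found in a transcript of the gene. Other forms of the site and sequence further away were not searched. Each stretch below carries a match, with the motif in capitals. The whole window is printed for *Nfkbia* (chr12:55492648-55492897, minus strand) and *Rel* (chr11:23770970-23771219, minus strand), and 30 bases for *Nfkb2* (chr19:46304687-46304716, plus strand) and *Tnfaip3* (kappaB, chr10:19015411-19015440; E-box, chr10:19015427-19015456, both minus strand). Exons of *AC114539.1* and *Nfkb2* cover the whole *Nfkb2* window. Exons of *Tnfaip3* itself cover 110 of 250 bases of the *Tnfaip3* window.
Nfkbia, kappaB: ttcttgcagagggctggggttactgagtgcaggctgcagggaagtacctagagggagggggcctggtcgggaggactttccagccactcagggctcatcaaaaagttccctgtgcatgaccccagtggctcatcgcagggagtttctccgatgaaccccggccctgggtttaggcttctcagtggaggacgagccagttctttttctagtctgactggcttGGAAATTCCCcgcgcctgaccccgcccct
Rel, kappaB: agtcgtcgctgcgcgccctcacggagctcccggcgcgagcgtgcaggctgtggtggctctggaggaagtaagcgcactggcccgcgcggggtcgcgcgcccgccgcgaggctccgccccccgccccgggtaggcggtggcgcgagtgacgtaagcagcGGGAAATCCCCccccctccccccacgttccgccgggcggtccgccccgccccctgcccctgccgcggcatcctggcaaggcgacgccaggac
Nfkb2, kappaB: gggatcgtcacGGGAATTCCCCccctcggg
Tnfaip3, kappaB: gtgactggaatttccatcGGAAATCCCCct
Tnfaip3, E-box: gcgccacgcgggtCACGTGactggaatttc

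In *Nfkbia* the match lay 29 to 20 bases before the start, and in *Rel* 92 to 82 bases before it, where matches on the 2 strands overlapped. In *Tnfaip3* the printed match lay 12 to 3 bases before the start, and another lay at 125 to 116. In *Nfkb2* the printed stretch holds matches at 39 to 29 bases before its first start, and another lay at 11 to 2. These are matches of letters and not measured binding.

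Levels of the members differed widely when compared per kilobase of exon. In order of the mean over the 20 libraries, *Nfkbia* stood at 164 CPM per kb, *Tnfaip2* at 79.8, *Nfkbiz* at 45.6, *Nfkb1* at 16.0, *Nfkb2* at 10.9, *Relb* at 4.25, *Tnfaip3* at 3.75, *Rel* at 2.26 and *Icam1* at 1.42. *Nfkbia* lay at percentile 98.3 of 13510 genes with a length and *Icam1* at percentile 41.1. Over the 5 untreated WT mice, *Relb* (3.69 to 4.21 CPM per kb) overlapped *Tnfaip3* (3.36 to 4.7), and *Tnfaip3* overlapped *Rel* (1.88 to 3.45), whereas the other neighbours in this order did not overlap. The inhibitor *Nfkbia* was thus the most abundant member, and among the member subunit genes *Nfkb1* was the most abundant and *Rel* the least. The subunit gene *Rela*, which is not a member, was not placed in this order.

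**Figure D1:**
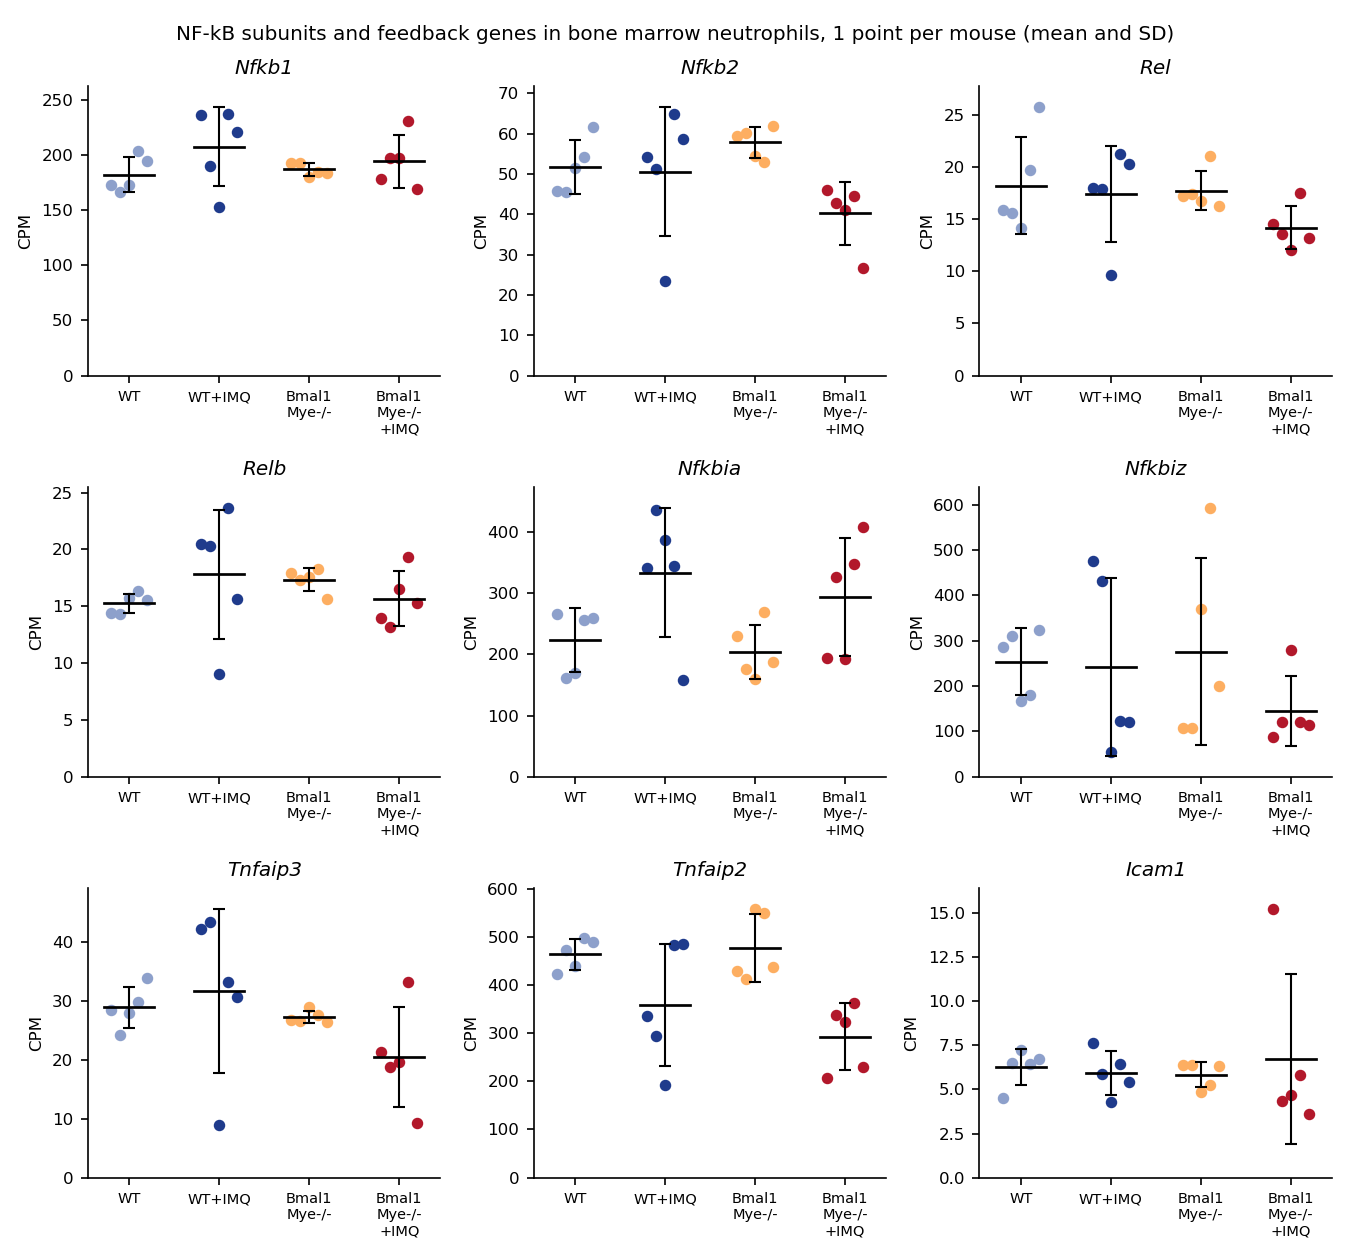
Level of each member in CPM (y axis, linear, from 0) in the 4 groups (x axis), with 1 point per mouse in the order of its replicate number, the mean as a line and the SD as bars (n = 5). Untreated groups are tight for most members, *Tnfaip2* and *Nfkb2* of IMQ-treated Bmal1 Mye-/- lie below all untreated Bmal1 Mye-/- mice, and 1 IMQ-treated WT library is low in 7 of the 9 panels.

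The first comparison asked what IMQ did to these genes in WT neutrophils. None of the 9 members passed the test (edgeR quasi-likelihood, Benjamini-Hochberg adjusted p under 0.05), against 3.95% of all tested genes. At an unadjusted p under 0.05 the count was 1 of 9, against 22.3% of all genes. The fitted changes ran from a log2 fold change of -0.37 to 0.58, with a median of -0.03 beside 0.03 over all genes.

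*Nfkbia* (chr12:55489410-55492647), which encodes the cytoplasmic inhibitor IkBalpha, had the lowest p of the members. In untreated WT it stood at 267, 162, 170, 256 and 260 CPM in replicates 1 to 5. In IMQ-treated WT it stood at 341, 436, 388, 345 and 158 CPM. Thus 4 of the 5 treated mice lay above every untreated mouse, and replicate 5 lay below them all. The fitted change was a log2 fold change of 0.58 (SE 0.26, adjusted p = 0.184). Without replicate 5, which was also the library placed among the untreated mice by the first principal component, it was 0.75 (SE 0.22, adjusted p = 0.032), and 13.9% of all genes then passed the test.

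*Tnfaip2* (chr12:111442469-111455018), induced by TNF and linked to membrane protrusions, stood in untreated WT at 423, 472, 439, 498 and 489 CPM. In IMQ-treated WT it stood at 335, 294, 193, 484 and 485 CPM. The groups overlapped, since 2 treated mice stayed at the untreated level and 3 lay below it, and the log2 fold change was -0.37 (SE 0.21, adjusted p = 0.303). *Tnfaip3* (chr10:19000910-19015657) encodes the ubiquitin-editing enzyme A20, which shuts off signalling above IKK. It stood at 28.5, 24.3, 28.0, 29.9 and 34.0 CPM in untreated WT, and at 42.2, 43.5, 8.97, 33.2 and 30.7 CPM in IMQ-treated WT. Replicates 1 and 2 were above every untreated mouse, and replicate 3 had the lowest value of *Tnfaip3* in the series. The log2 fold change was 0.13 (SE 0.31, adjusted p = 0.846), and it ran from -0.01 to 0.36 as single libraries were left out.

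*Nfkbiz* (chr16:55811375-55838899) encodes IkBzeta, a nuclear member of the inhibitor family that co-activates a subset of NF-kB targets. It was the most variable member in both WT groups (SD of log2 CPM of 0.45 untreated and 1.33 with IMQ). In untreated WT it stood at 286, 310, 168, 181 and 324 CPM, and in IMQ-treated WT at 476, 432, 55.0, 123 and 120 CPM. The treated mice lay on both sides of the untreated range and none within it. The log2 fold change was -0.07 with an SE of 0.54, so that a change of 2-fold in either direction lies within its 95% interval (-1.2 to 1.06).

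Among the subunits, *Nfkb1* (chr3:135584655-135691547), which encodes p105 and its product p50, ranged from 167 to 204 CPM in untreated WT and from 153 to 237 CPM with IMQ. *Nfkb2* (chr19:46304320-46312385), which encodes p100 and p52 of the non-canonical pathway, ranged from 45.6 to 61.7 and from 23.5 to 64.8 CPM. *Rel* (chr11:23736847-23770970), for c-Rel, ranged from 14.1 to 25.7 and from 9.6 to 21.2 CPM. All of these ranges overlapped, with log2 fold changes of 0.18 (SE 0.11), -0.03 (SE 0.2) and -0.06 (SE 0.19). *Relb* (chr7:19606217-19629438), the partner of p52, stood at 14.3 to 16.3 CPM in untreated WT and at 20.5, 20.3, 9.01, 23.6 and 15.6 CPM with IMQ. Here 3 treated mice were above the untreated range and replicate 3 below it (log2 fold change 0.22, SE 0.18, adjusted p = 0.494). *Icam1* (chr9:21015985-21028817), an adhesion molecule and a standard NF-kB target in endothelium, was low in both groups, at 4.53 to 7.21 and 4.3 to 7.63 CPM.

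The same question was asked in *Bmal1* Mye-/- neutrophils. Over all genes 3292 passed the test here and 554 in WT, counts that ran from 1612 (without untreated replicate 4) to 4037 and from 48 (without untreated replicate 2) to 1989 (without treated replicate 5) as single libraries were left out, and the difference between the genotypes is tested below as an interaction. One of the 9 members passed the test, *Tnfaip2*, which fell, against 23.5% of all genes called and 9.04% called lower. The share of members called was thus near the background. At an unadjusted p under 0.05 the count was 2 of 9, against 39.3%. The members' median log2 fold change was -0.32, beside 0.02 over all genes, and 6 of 9 were fitted lower, whereas 51.8% of all genes were fitted higher.

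*Tnfaip2* stood at 429, 413, 557, 550 and 438 CPM in untreated *Bmal1* Mye-/- mice. With IMQ it stood at 206, 338, 324, 363 and 230 CPM. The groups did not overlap, and replicates 1 and 5 were the lowest. It fell by 0.71 on the log2 scale (SE 0.21, adjusted p = 0.0227), to 0.612 of the untreated level. The call was lost when untreated replicate 3 or 4, or IMQ-treated replicate 1 or 5, was left out (adjusted p of 0.0572, 0.0609, 0.0636 and 0.0628), with a log2 fold change of -0.59 to -0.65 in these fits.

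*Nfkb2* stood at 59.5, 60.2, 54.4, 52.9 and 61.9 CPM in untreated *Bmal1* Mye-/- mice, and at 45.9, 42.9, 41.1, 44.4 and 26.6 CPM with IMQ. These groups did not overlap either, with replicate 5 far below the other treated mice. Non-overlap was seen in 2 of 9 members, both lower, against 20.1% of all genes and 9.31% lower. The fitted log2 fold change of *Nfkb2* was -0.52 (SE 0.2, adjusted p = 0.0581), and it passed the test in a fit of the compared groups alone (-0.51, SE 0.14, adjusted p = 0.0273) and with DESeq2 (-0.55, adjusted p = 0.0417). *Psd*, on the other strand, shares 299 exon bases with *Nfkb2*, and the strand setting of the counting is not given in the sources used here. Genes on the other strand that were not among the counted genes also share exon bases with members. These are *AC114539.1* with *Nfkb2* (531 bases), *Gm40578* with *Tnfaip2* (314 bases) and *Gm47079* with *Icam1* (511 bases). *Psd* itself was at 2.54 to 7.03 CPM in all 20 libraries.

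*Nfkbia* stood at 230, 177, 160, 269 and 188 CPM in untreated *Bmal1* Mye-/- mice and at 194, 327, 192, 348 and 408 CPM with IMQ. Replicates 2, 4 and 5 were above every untreated mouse, and replicates 1 and 3 were within the untreated range. The log2 fold change of 0.52 (SE 0.26, adjusted p = 0.135) had nearly the size seen in WT. Thus the most abundant inhibitor had a positive fitted change in both genotypes and passed the test in neither.

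*Tnfaip3* was tightest in untreated *Bmal1* Mye-/- mice, at 26.8, 26.7, 29.0, 27.7 and 26.4 CPM. With IMQ it stood at 21.4, 18.8, 19.7, 33.3 and 9.35 CPM, so that 4 of 5 treated mice lay below all the untreated ones and replicate 4 above them all (log2 fold change -0.41, SE 0.31, adjusted p = 0.322). *Nfkbiz* went from 108, 108, 369, 592 and 201 CPM to 87.5, 120, 280, 121 and 113 CPM. The untreated mice alone spanned more than the change between the groups (log2 fold change -0.93, SE 0.54, adjusted p = 0.206). The sum of 10 immediate early genes, such as *Fos* and *Egr1*, was also highest in untreated replicates 3 and 4 (10800 and 15100 CPM, against 2210 to 10600 CPM in all other libraries), and its part in the spread of *Nfkbiz* was not tested.

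*Rel* ranged from 16.3 to 21.0 CPM in untreated *Bmal1* Mye-/- mice and stood at 14.5, 13.6, 12.0, 17.5 and 13.2 CPM with IMQ, where all but replicate 4 were below the untreated range (log2 fold change -0.32, SE 0.19, adjusted p = 0.209). *Relb* was at 15.6 to 18.3 and 13.2 to 19.3 CPM, and *Nfkb1* at 180 to 193 and 169 to 231 CPM. Both overlapped, and their fitted changes were -0.15 (SE 0.18) and 0.06 (SE 0.11) on the log2 scale. *Icam1* was at 6.38, 6.38, 4.85, 5.26 and 6.33 CPM without IMQ and at 15.2, 4.35, 4.69, 5.79 and 3.58 CPM with it. Its positive log2 fold change of 0.2 (SE 0.3) rested on replicate 1, without which it was -0.33. Replicate 1 also had the highest sum of the monocyte list, 2930 CPM against 202 to 1140 CPM in all other libraries, with none of its 6 genes at 0 in any library, and the part of other cells in its *Icam1* level was not tested.

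**Figure D2:**
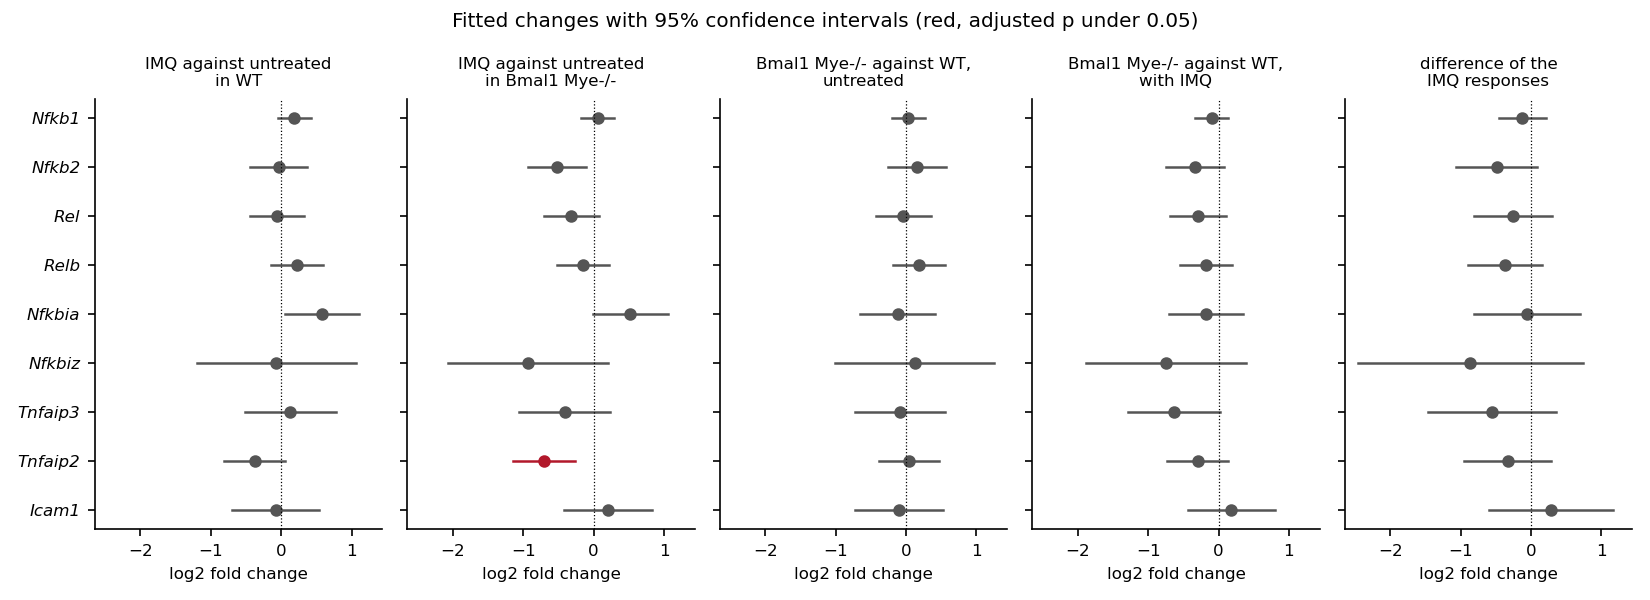
Fitted log2 fold changes of the 9 members (points) with 95% confidence intervals (lines) in the 4 comparisons and in the difference of the IMQ responses, red where the adjusted p was under 0.05. The only red point is *Tnfaip2* under IMQ in Bmal1 Mye-/- (-0.71), and *Nfkbiz* has the widest interval in every panel.

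Markers of cell state moved with the treatment in *Bmal1* Mye-/- mice. All 5 proliferation genes, such as *Mki67* and *Top2a*, rose, and their sum was 828 to 1950 CPM with IMQ and 242 to 447 CPM without. Of the 8 late neutrophil genes, 2 fell (*Ccl6* and *Il1b*) and none rose, and the sum was 2880 to 14400 CPM with IMQ and 13700 to 18600 CPM without. Of the 6 monocyte genes, 4 rose, but the sum was 2930, 1140, 249, 467 and 202 CPM in treated replicates 1 to 5 and 372 to 557 CPM without IMQ. *Csf1r* of this list was not called and had a median of 198 CPM without and 88.7 CPM with IMQ. Of the 10 immediate early genes, 3 fell. Beside these counts, 14.4% of all genes were called higher and 9.04% lower. In bulk samples fewer cells of a type and less RNA per cell cannot be told apart, and the part of a shift in cell stage in the lower *Tnfaip2* and *Nfkb2* was not tested. Without replicates 3 of IMQ-treated WT and 1 of IMQ-treated *Bmal1* Mye-/-, *Tnfaip2* (log2 fold change -0.58, SE 0.15, adjusted p = 0.0112) and *Nfkb2* (-0.55, SE 0.13, adjusted p = 0.00542) passed the test. This fit does not test cell stage, since treated replicates 3 and 5, which it kept, had late neutrophil sums of 7930 and 6460 CPM.

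Next, the genotypes were compared without treatment. None of the 9 members passed the test, against 0.207% of all genes, and none had an unadjusted p under 0.05, against 2.19%. Fitted log2 fold changes ran from -0.12 (*Nfkbia*) to 0.18 (*Relb*), 5 higher and 4 lower in *Bmal1* Mye-/- mice. The narrowest interval was that of *Nfkb1*, 0.03 (95% interval -0.2 to 0.27), and the widest that of *Nfkbiz*, 0.12 (-1.01 to 1.25). *Tnfaip3*, the only member with an E-box in the searched window, was 28.9 ± 3.49 CPM in WT and 27.3 ± 1.05 CPM in *Bmal1* Mye-/- (SD, n = 5 each), a log2 fold change of -0.08 (SE 0.31). For 8 members the 95% interval left out a 2-fold difference in either direction, and for *Nfkbiz* it left out neither. The fit shared an estimate of spread over all 4 groups, and untreated groups were tighter than treated ones for most members. These SEs, p-values and intervals thus rest in part on the spread of the treated mice. In a fit of only the untreated groups, 0 members and 0.442% of all genes passed the test.

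With IMQ, none of the 9 members passed the test between genotypes, against 0.292% of all genes, and none had an unadjusted p under 0.05, against 19.9%. All members but *Icam1* were fitted lower in *Bmal1* Mye-/-, 8 of 9, whereas 53.1% of all genes were fitted higher. With limma on values without TMM factors the count was 5 of 9, as the median of all genes moved to 0.22 on that scale, and the members' median lay 0.27 below it (0.33 below with TMM factors). The lowest p was that of *Tnfaip3*, with 31.7 ± 13.9 CPM in WT and 20.5 ± 8.55 CPM in *Bmal1* Mye-/- (SD, n = 5 each) and a log2 fold change of -0.63 (SE 0.31, adjusted p = 0.254). The genotypes overlapped in every member, against 1.07% of all genes in which they did not. The SEs here also drew on the untreated groups, which were tighter for most members. In a fit of only the treated groups, 0 members and 0.127% of all genes passed the test. Of the 5 genes of the eosinophil list, *Prg2* and *Epx* were higher in *Bmal1* Mye-/- with IMQ (log2 fold changes of 2.54 and 2.97). No other gene of this list was called between the genotypes. The list's sum was 36.9 to 186 CPM against 17.3 to 34.3 CPM, and its part in the members' levels was not tested.

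One WT library held much of this comparison. Replicate 3 of IMQ-treated WT had the lowest level of all 20 libraries in 7 of the 9 members (*Nfkbiz*, *Tnfaip3*, *Tnfaip2*, *Nfkb1*, *Nfkb2*, *Rel* and *Relb*), but not in *Nfkbia*, where it was the second highest of its group, nor in *Icam1*. It was the lowest library in 8.85% of all tested genes. Without it, 4 members passed the test, all lower in *Bmal1* Mye-/-, and so did 21.9% of all genes. These were *Tnfaip3* (log2 fold change -0.86, SE 0.22, adjusted p = 0.0192), *Nfkb2* (-0.51, SE 0.14, adjusted p = 0.0213), *Rel* (-0.44, SE 0.15, adjusted p = 0.0472) and *Relb* (-0.35, SE 0.12, adjusted p = 0.0485). When replicate 1 of IMQ-treated *Bmal1* Mye-/- was left out as well, the library with the lowest late neutrophil sum of each genotype was absent. Then 2 members passed, *Tnfaip3* (-0.86, adjusted p = 0.037) and *Nfkb2* (-0.54, adjusted p = 0.0276), and 8.89% of all genes did. The calls between genotypes under IMQ thus depended on 1 mouse. That mouse also had the second lowest late neutrophil sum, the lowest immediate early sum (2210 CPM) and a high proliferation sum (1720 CPM), whose part was not tested.

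**Figure D3:**
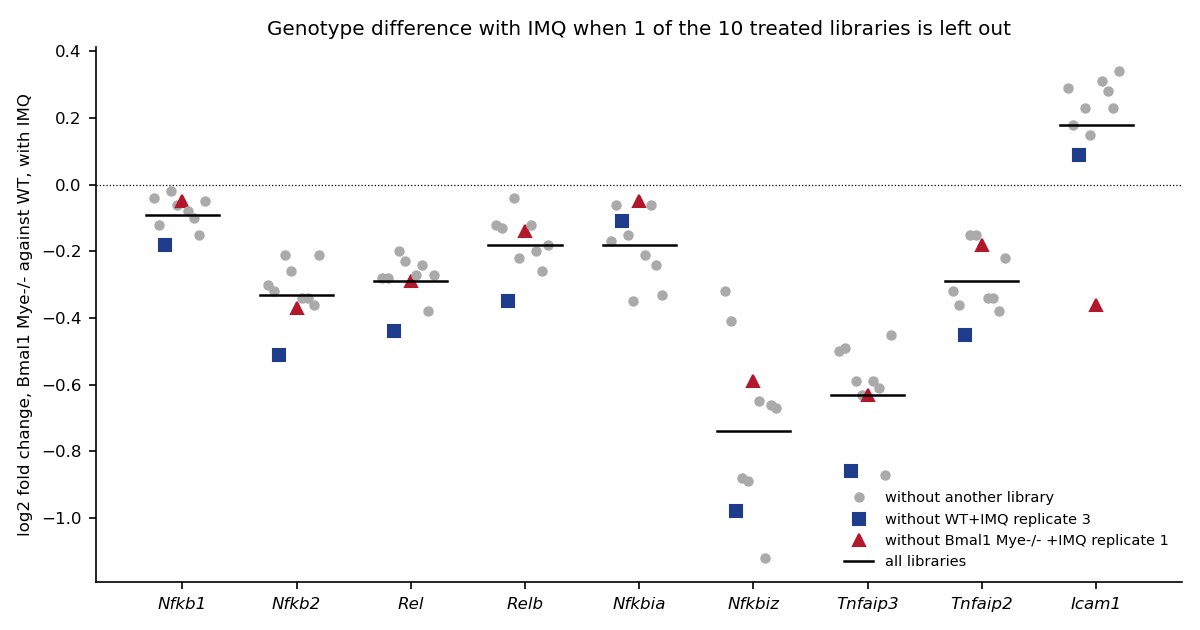
Log2 fold change of Bmal1 Mye-/- against WT with IMQ for each member (x axis) with all libraries (line) and with each of the 10 treated libraries left out (points). Leaving out replicate 3 of IMQ-treated WT (squares) moved *Tnfaip3* from -0.63 to -0.86 and *Nfkb2* from -0.33 to -0.51, and leaving out replicate 1 of IMQ-treated Bmal1 Mye-/- (triangles) moved *Icam1* from 0.18 to -0.36.

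Whether the response to IMQ itself differed between the genotypes was tested as an interaction. No gene passed this test by edgeR or by DESeq2, and at an unadjusted p under 0.05 there were 721 genes (5.14%) and 0 members by edgeR. The largest fitted differences of the members were those of *Nfkbiz* (-0.86, SE 0.77), *Tnfaip3* (-0.55, SE 0.44) and *Nfkb2* (-0.49, SE 0.28, adjusted p = 0.64). *Tnfaip2*, called in *Bmal1* Mye-/- only, did not differ detectably in its response (-0.33, SE 0.29, adjusted p = 0.658). Thus 8 of 9 members had a negative difference (6 of 9 by limma without TMM factors), none was distinguishable from 0, and the comparisons share their libraries with each other.

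The spread between mice was larger with IMQ. The SD of log2 CPM rose in all 9 members in WT (86.5% of all genes) and in 8 of 9 in *Bmal1* Mye-/- (84.3%), the exception being *Nfkbiz* (1.09 without and 0.64 with IMQ). The members' median SD was 0.18 in untreated WT, 0.14 in untreated *Bmal1* Mye-/-, 0.56 in IMQ-treated WT and 0.36 in IMQ-treated *Bmal1* Mye-/-, beside 0.21, 0.19, 0.45 and 0.45 over all genes. In untreated *Bmal1* Mye-/- mice *Nfkb1* and *Tnfaip3* varied by an SD of 0.04 and 0.05 only. The members followed the rest of the genes in this, as the shares show.

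**Figure D4:**
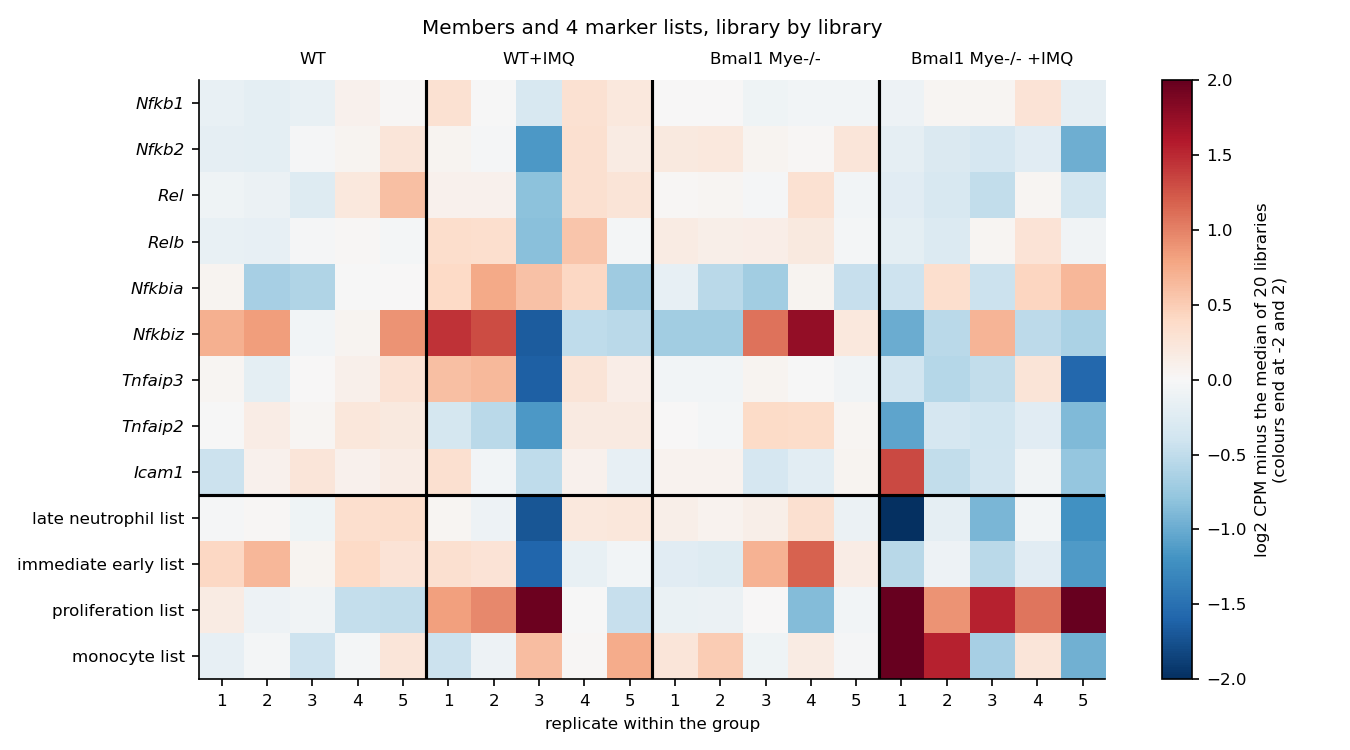
Each row is a member or, under the black line, the summed CPM of a marker list, each column is a library, and colour is log2 CPM minus the median of the 20 libraries. In IMQ-treated WT replicate 3 most members are blue together with the late neutrophil and immediate early lists, *Nfkbia* is red there, and *Icam1* is red in IMQ-treated Bmal1 Mye-/- replicate 1 together with the monocyte list.

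Other genes of the pathway were counted in 3 lists. Of 32 genes from receptor to kinase, none passed the test in WT (3.95% of all genes did), and 2 rose without IMQ-treated replicate 5. In *Bmal1* Mye-/- 2 rose and 5 fell with IMQ, with a list median of -0.12, against 23.5% of all genes called and 9.04% called lower. As single libraries were left out, 0 to 3 rose and 1 to 5 fell. These counts were 0 and 2 without untreated replicate 1, 2 or 4 or treated replicate 1, 2 and 3 without untreated replicate 3 or 5, 2 and 2 without treated replicate 3, and 1 and 1 without treated replicate 5. Without replicates 3 of IMQ-treated WT and 1 of IMQ-treated *Bmal1* Mye-/-, 2 rose and 6 fell. *Tlr2*, a receptor for bacterial lipoproteins, fell by 1.21 on the log2 scale (SE 0.35), *Irak2*, a kinase that binds MyD88, by 0.69 (SE 0.22), *Map3k14*, the NIK kinase of the non-canonical pathway that processes p100, by 0.79 (SE 0.25), *Birc2* by 0.42 (SE 0.11) and the TNF receptor gene *Tnfrsf1b* by 0.58 (SE 0.2). *Ikbke*, an IKK-related kinase, rose by 0.85 (SE 0.26) and *Map3k7*, which encodes TAK1, by 0.3 (SE 0.1). With the replicate number as a block *Map3k7* and *Tnfrsf1b* no longer passed (adjusted p of 0.0672 and 0.0562). The receptor for IMQ, *Tlr7*, was at 27.6 ± 6.31 CPM in WT and 36.4 ± 8.09 CPM with IMQ, and at 28.6 ± 4.77 and 31.6 ± 13 CPM in *Bmal1* Mye-/- (SD, n = 5 each), and did not pass the test in either. Its adaptor *Myd88* did not pass either, with log2 fold changes of 0.33 (SE 0.14, adjusted p = 0.175) in WT and -0.04 (SE 0.14) in *Bmal1* Mye-/-.

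Of 19 other subunits and inhibitors, again none passed in WT (1 rose without treated replicate 3, and 1 rose and 1 fell without treated replicate 5). In *Bmal1* Mye-/- 1 rose and 5 fell, with a median of -0.11, against the same 23.5% and 9.04% of all genes. The number that fell was 2 without untreated replicate 3 or 4 or treated replicate 1 or 5, 3 without untreated replicate 1 or 5 or treated replicate 3, and again 5 without replicates 3 of IMQ-treated WT and 1 of IMQ-treated *Bmal1* Mye-/-. The main activating subunit, *Rela*, stood at 135 ± 8.23 CPM without and 104 ± 12.9 CPM with IMQ in *Bmal1* Mye-/- (SD, n = 5 each; log2 fold change -0.38, SE 0.1, adjusted p = 0.0176), and at 127 ± 3.05 and 132 ± 19.8 CPM in WT (0.05, SE 0.1). Between genotypes with IMQ *Rela* had a log2 fold change of -0.35 (SE 0.1, adjusted p = 0.169). Of the IkB family, *Nfkbie* (-0.87, SE 0.3) and *Nfkbid* (-0.78, SE 0.21) fell in *Bmal1* Mye-/-, as did *Tnip1*, whose product binds A20 (-0.59, SE 0.19), and *Zc3h12a*, which encodes the mRNA-degrading Regnase-1 (-0.81, SE 0.23). *Commd1* rose (0.45, SE 0.12). *Nfkbia*, with a fitted change of 0.52 that did not pass the test, had the opposite sign to the inhibitors that fell.

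Of 30 textbook targets, 26 were tested. In WT 2 rose and 2 fell, with a median of -0.01, against 3.95% of all genes, and in *Bmal1* Mye-/- 1 rose and 8 fell, with a median of -0.16, against 23.5% called and 9.04% lower. In WT the number that rose was 1 when any single library other than treated replicate 5 was left out. None fell without untreated or treated replicate 2, 3 or 4, 1 fell without untreated replicate 1 or 5 or treated replicate 1, and 4 fell without treated replicate 5. In *Bmal1* Mye-/- 4 fell without untreated replicate 4, and 5 without untreated or treated replicate 5. Without treated replicate 1 or 3, 6 fell, and without treated replicate 2, 7 fell. The number was 8 without replicates 3 of IMQ-treated WT and 1 of IMQ-treated *Bmal1* Mye-/-. *Nos2*, the inducible nitric oxide synthase, rose in both, from 0.0543 ± 0.024 to 2.34 ± 2.67 CPM in WT and from 0.105 ± 0.0767 to 1.94 ± 1.18 CPM in *Bmal1* Mye-/- (SD, n = 5 each; log2 fold changes of 5.38 and 4.06). The chemokine genes *Ccl3* (-1.76 in WT, -1.36 in *Bmal1* Mye-/-) and *Ccl4* (-2.01 and -2.35) fell in both genotypes. In WT both calls were lost with the replicate block (adjusted p of 0.0711 and 0.0548). *Bcl2l1*, an anti-apoptotic gene, rose in WT (0.53, SE 0.14, adjusted p = 0.0446), a call lost with the replicate block (adjusted p = 0.0639) and in 14 of 19 alternatives in all. In *Bmal1* Mye-/- the cyclooxygenase gene *Ptgs2* (-4.1, SE 0.83), the inflammasome gene *Nlrp3* (-2.16, SE 0.5), *Il1rn* (-1.88, SE 0.49), *Sele* (-1.11, SE 0.33), *Gadd45b* (-0.94, SE 0.31) and *Il1b* (-2.02, SE 0.62, adjusted p = 0.0275) fell. *Il1b* is also on the late neutrophil list. *Tnf* (0.36, SE 0.18 in WT; 0.1, SE 0.18 in *Bmal1* Mye-/-) and *Cxcl2* (-0.14, SE 0.57; -0.81, SE 0.57) did not pass the test. Of the 22 calls of list genes in *Bmal1* Mye-/-, 7 held under every alternative that could test the gene, those of *Birc2*, *Nfkbid*, *Ccl4*, *Il1rn*, *Nlrp3*, *Nos2* and *Ptgs2*, and in WT only that of *Nos2* did. Between the genotypes, untreated or with IMQ, and in the interaction, none of the genes of the 3 lists passed the test with all libraries. Without replicate 3 of IMQ-treated WT, 7, 6 and 3 genes of the lists, in the order above, were lower in *Bmal1* Mye-/- with IMQ, beside 21.9% of all genes called, and 2, 2 and 0 were when replicate 1 of IMQ-treated *Bmal1* Mye-/- was left out as well. Without replicate 4 of IMQ-treated *Bmal1* Mye-/- the counts were 1, 1 and 0.

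**Figure D5:**
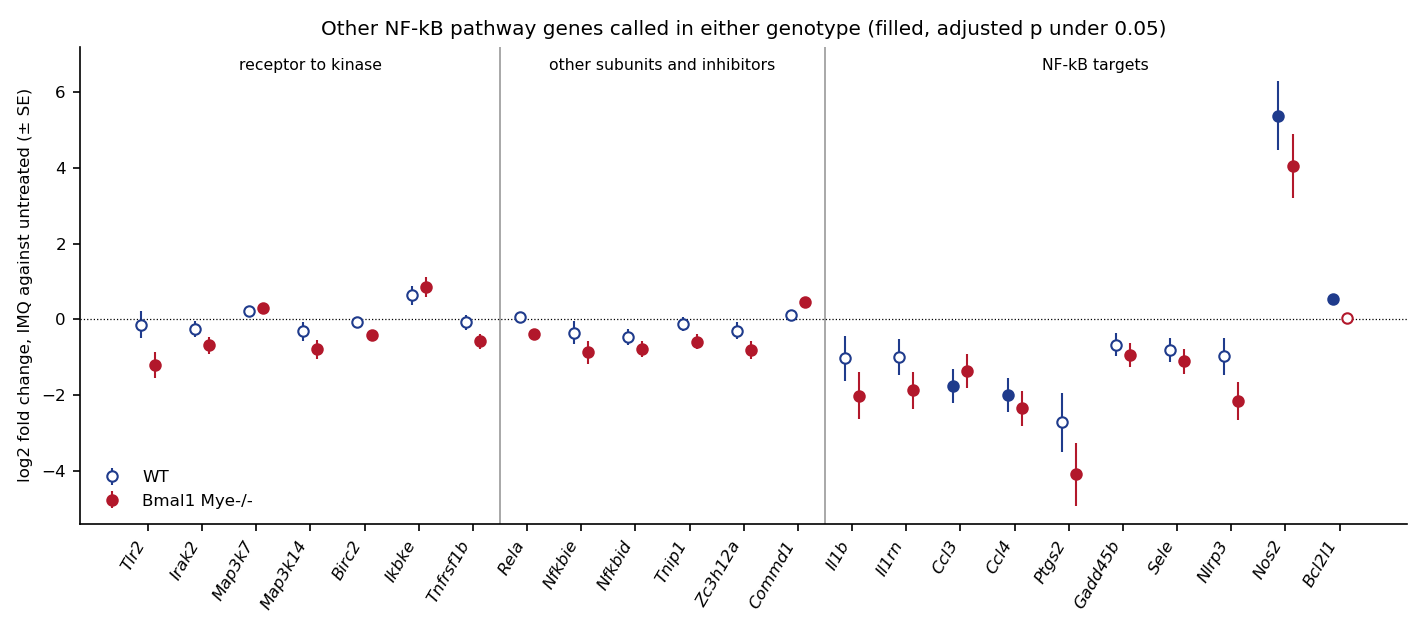
Log2 fold change of IMQ against untreated with its SE (bars) in WT (blue) and Bmal1 Mye-/- (red) for the genes of the 3 pathway lists called in either genotype, filled where the adjusted p was under 0.05. Filled red points lie mostly below 0, and *Nos2* is the highest point in both genotypes (5.38 and 4.06).

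Over the 20 libraries, which share their groups and depth, the genes most like the mean of the members' standardised levels were *Ctps2* and *Gdap10* (Pearson r of 0.89 each), *Plekhn1* and *Eif4a2* (0.88 each) and *Perm1* (0.87). The closest gene to each single member was *Letm2* for *Tnfaip2* (r = 0.97), *Taf7* for *Nfkbiz* (0.96), *Lamp2* for *Nfkb1* (0.92), *Perm1* for *Nfkb2* (0.92), *Ankhd1* for *Rel* (0.91), *Ifi27l2a* for *Tnfaip3* (0.88), *Itgb7* for *Icam1* (0.84) and *Arid1b* for *Relb* (0.82). For *Nfkbia* it was the row listed under the microRNA gene symbol *Mir1198* (0.99), which was not matched to a mature microRNA. Among the members themselves, *Tnfaip3* and *Nfkb2* were most alike (r = 0.86), and *Nfkbia* and *Tnfaip2* least (r = -0.47). These are descriptions over 20 libraries and carry no test.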

How the data were processed

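Bone marrow neutrophil RNA of 20 mice was sequenced by the authors. Per the labels, the processing notes name bcl2fastq, STAR 2.7.8a, HTSeq 2.0.1 and mm10, whereas the study's methods name TopHat on Read 1. Annotation and strand setting are not given in the sources used here. The deposited files hold raw counts per gene, without normalization, for 24421 genes. The lines of reads on no feature (51.85% to 57.79%), ambiguous or not unique were left out. A table of the whole series was not used. Libraries were grouped by the genotype and treatment in the labels.

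Genes were filtered with filterByExpr and scaled with TMM factors (0.854 to 1.38). All 4 groups were fitted in edgeR 4.0.16 (R 4.3.3) by the quasi-likelihood method without a block, and p-values were adjusted over 14030 genes by the Benjamini-Hochberg method at 0.05. CPM in sentences are TMM-scaled, and gene positions and lengths are those of GENCODE M21. The method was also run on simulated data in which all groups had the same spread. That run does not check the fit under the larger spread with IMQ seen here. Within groups no pair of libraries agreed within sampling noise (chi-square per degree of freedom 16.9 to 731). Over all genes together the spread between mice thus exceeded counting error. Single genes and genes of low count were not checked for this.

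The members and lists were chosen with earlier results of these data known. Named were all members, list genes past the threshold (at most the 6 of lowest p per list and comparison), *Tlr7*, *Myd88*, *Rela*, *Tnf*, *Il1b* and *Cxcl2*, and the genes closest to the members by Pearson r. *Tnfrsf1b* and *Gadd45b*, outside this rule, were named after their values were seen, and marker genes where they move with a result. Same-numbered replicates of *Bmal1* Mye-/- mice deviated together (r of 0.128 to 0.426 over genes, all 5 over 0.1). For WT r was 0.0728 to 0.384. Alternatives were DESeq2 1.42.0, RLE factors, limma 3.58.1 on log2(CPM + 0.1) without TMM factors, no filter, at least 10 counts in every library, a fit of the compared groups, the replicate block and leaving out libraries.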

Additional observations from a re-analysis of the deposited data

Results flagged for a closer look

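In 6 of the 36 combinations of member and group, 1 mouse lay far from the other 4 by Dixon's test for 5 values, a test that flags about 1 in 20 groups by chance. In IMQ-treated *Bmal1* Mye-/- mice these were *Nfkbiz* in replicate 3, at 280 CPM against 87.5 to 121 in the others, *Nfkb2* in replicate 5, at 26.6 CPM against 41.1 to 45.9, and *Icam1* in replicate 1, at 15.2 CPM against 3.58 to 5.79. In IMQ-treated WT it was *Rel* in replicate 3, at 9.6 CPM against 17.9 to 21.2. In untreated mice they were *Rel* in replicate 4 of *Bmal1* Mye-/-, at 21.0 CPM against 16.3 to 17.4, and *Icam1* in replicate 1 of WT, at 4.53 CPM against 6.45 to 7.21. The mouse low in *Rel* was the one with the lowest level of 7 members, and the mouse high in *Icam1* had the highest sum of monocyte genes. Causes were not tested.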

How the results depend on the processing

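The counts of members called were 0, 1, 0, 0 and 0 (IMQ in WT, IMQ in *Bmal1* Mye-/-, genotype untreated, genotype with IMQ, interaction). With the replicate block they were again 0, 1, 0, 0 and 0, and this block changed no call of a member. The block joins same-numbered mice of both genotypes. Between genotypes their r ran from -0.441 to 0.206 untreated and from -0.497 to 0.343 with IMQ, so that the block does not test a pairing within each genotype. The block ended the calls of the list genes *Ccl3*, *Ccl4* and *Bcl2l1* in WT and of *Map3k7* and *Tnfrsf1b* in *Bmal1* Mye-/-, and the calls over all genes for IMQ in WT went from 554 to 190. The count for IMQ in *Bmal1* Mye-/- was 2 with DESeq2, with at least 10 counts in every library, in a fit of the compared groups, and without replicates 3 of IMQ-treated WT and 1 of IMQ-treated *Bmal1* Mye-/-. The latter, chosen after seeing the data, also gave 2 for the genotypes with IMQ, and leaving out replicates 5 of IMQ-treated WT and 2 of IMQ-treated *Bmal1* Mye-/- gave 1 for IMQ in WT. Leaving out single libraries, the counts were 0 to 1, 0 to 1, 0 to 0, 0 to 4 and 0 to 0.

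Some signs turned, and the cause was not tested beyond the shift of scale. By limma without TMM factors, where the median of all genes lay at 0.22 for the genotypes with IMQ and 0.19 for the interaction, *Tnfaip3* was at -0.11 for IMQ in WT, *Nfkbiz* at -0.14 and *Rel* at 0 between untreated genotypes, *Nfkbia* at 0.02, *Nfkb1* at 0.11 and *Relb* at 0.07 with IMQ, and *Nfkbia* at 0.13 and *Nfkb1* at 0.06 in the interaction. Calls over all genes for IMQ in WT were then 130 higher and 405 lower, against 329 and 225. Without replicates 5 and 2 *Nfkbiz* was at 0.08 for IMQ in WT, while *Nfkbia* kept its sign, at -0.39 for the genotypes with IMQ and -0.25 in the interaction. Without replicates 3 and 1 the values were 0.17 for *Nfkbiz*, 0.14 for *Nfkb2*, 0.08 for *Rel* and 0 for *Icam1* (IMQ in WT), -0.32 for *Icam1* (IMQ in *Bmal1* Mye-/-), 0.02 for *Nfkbia* and -0.44 for *Icam1* (genotypes with IMQ), and 0.15 and -0.33 for the same genes in the interaction. Leaving out single libraries turned signs in these ranges: IMQ in WT, *Nfkbiz* -0.48 to 0.17, *Tnfaip3* -0.01 to 0.36, *Nfkb2* -0.15 to 0.14, *Rel* -0.16 to 0.09 and *Icam1* -0.19 to 0.01. For IMQ in *Bmal1* Mye-/-, *Icam1* ran from -0.33 to 0.37. Between untreated genotypes *Nfkbiz* ran from -0.37 to 0.32, *Tnfaip2* from -0.04 to 0.09, *Nfkb1* from 0 to 0.06 and *Rel* from -0.13 to 0.1. With IMQ *Icam1* ran from -0.36 to 0.34, and in the interaction *Nfkbia* from -0.21 to 0.09 and *Icam1* from -0.24 to 0.45. Calls over all genes moved by over 1.5 times with DESeq2 (1494 for IMQ in WT, 310 for the genotypes with IMQ), without a filter (326 for IMQ in WT) and in a fit of the compared groups (186 for IMQ in WT, 59 and 16 between genotypes), against 554, 29 and 41. Leaving out single libraries, they ran from 48 (without untreated replicate 2) to 1989 (without treated replicate 5) for IMQ in WT, where each library moved them by over 1.5 times, from 1612 (without untreated replicate 4) to 4037 for IMQ in *Bmal1* Mye-/- (3292 with all, and 1612 to 2190 without untreated replicate 1, 2 or 4 or treated replicate 1 or 5), from 24 to 27 between untreated genotypes, from 20 to 3129 (without WT replicate 3, and 280 without *Bmal1* Mye-/- replicate 4) with IMQ, and from 0 to 1 in the interaction.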
